A study of Drosophila melanogaster with 4 samples.

Results

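Yolk protein genes, the sex determination genes that control them and the genes of X chromosome dosage compensation were read on 4 arrays of Drosophila melanogaster RNA. The members were the probe sets whose gene symbol in the platform annotation was 1 of 10 listed genes, namely Yp1, Yp2, Yp3, dsx, tra, Sxl, msl-2, fit, lncRNA:roX1 and lncRNA:roX2. Of these, 8 genes had a probe set, with 11 probe sets in all among the 18769 on the array that are not controls. No probe set carried the symbol or Entrez identifier of either roX RNA, so the roX levels are not analysed here. The labels call every sample heads of male flies taken after a 24 h fast. There was 1 array for each of 4 groups: a TORC mutant, a WT control, a TORC neuronal rescue (spelt "resuce" in the titles) and a rescue control. TORC is the CREB coactivator whose current gene symbol is Crtc. The sources used here name no allele, rescue control genotype, neuronal driver, age or number of pooled flies.

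In flies the splicing factor Sxl is switched on in females, where it directs splicing of tra and blocks translation of msl-2. Tra in turn directs splicing of dsx, so that females make one Doublesex protein and males another. In the fat body, which the head also contains, the female form turns the yolk protein genes on and the male form keeps them off. Without Sxl, males make Msl-2, which joins the roX RNAs and other proteins in a complex that raises transcription of the single male X chromosome. The sex-specific steps of Sxl, tra, dsx and msl-2 thus lie in splicing and translation, which the summed signal of a probe set need not show, whereas the yolk genes differ between the sexes in transcript level. The gene fit, named as female-specific and independent of tra, encodes a secreted peptide of the head fat body.

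The values were the deposited MAS5 signals, on a linear scale and brought by the authors to a common 2% trimmed mean of 150. Ratios were taken on the log2 scale after signals below a floor of 13.85 were raised to it. The floor equals the 40th percentile over probe sets, and a fold against a signal at or below it is a lower bound. A difference of 2-fold or more is called here, as a size only. With 1 array per group there is no replicate error and no test, and each comparison sets single arrays side by side. From genes with 2 probe sets, the log2 ratio of a single probe set had a robust SD of 0.35. That held for the mutant and WT control and for the neuronal rescue and rescue control. The difference between 2 probe sets of a gene spreads wider than this. All 11 member probe sets were above the floor on all 4 arrays.

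The arrays differed in ways that touch the results below. The signal of Crtc itself was 3.8 in the mutant and 203 in the WT control, while the neuronal rescue had 37.4 and the rescue control 6.7. Bacillus transcripts added before labelling had a geometric mean signal of 76.8 and 77.3 on the mutant and WT control arrays. It was 261 and 351 on the neuronal rescue and rescue control arrays. Photoreceptor markers, which define the labelled tissue, were above the floor for 10 of 10 measured genes on every array, with medians of 2910 in the mutant, 2779 in the WT control, 2670 with the neuronal rescue and 3086 in the rescue control. The neuron list, with 15 of 15 genes above the floor on every array, and the glia list, with 9 of 9, had medians between 530.4 and 643.9 and between 439 and 724, both lowest on the neuronal rescue array.

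The 3 yolk protein genes were bright on 3 of the 4 arrays and dim on the rescue control array. The labels call all 4 samples male, and the male Doublesex form keeps these genes off in the fat body. Bright yolk signals on 3 arrays are thus not what the label alone would lead a reader to expect. The sex makeup of the samples was not tested. They encode the lipase-related proteins that females secrete from fat body into the blood for uptake by the egg. The signal of Yp1 (Entrez gene 31939) was 4617 in the mutant and 3235 in the WT control. On the other pair of arrays, Yp1 had 4524 in the neuronal rescue and 17.6 in the rescue control, which put it at the 48.3rd percentile of all probe sets on the rescue control array, against the 98.6th to 99th on the others. Its rescue control signal was 1.27 times the floor.

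Yp2 (Entrez gene 31938), the neighbour of Yp1 on the X chromosome, had 2175 in the mutant and 727 in the WT control. Its signal was 1235 in the neuronal rescue and 14.8 in the rescue control, where it stood at 1.07 times the floor. Yp3 (Entrez gene 32339), also X-linked but apart from that pair, had 1508 in the mutant and 2339 in the WT control. It had 2034 in the neuronal rescue and 133 in the rescue control, a signal 9.6 times the floor, so that Yp3 was low on that array but well measured. Each of the 3 genes was thus lowest on the same array, with a wide gap to the next array. Among the 3 bright arrays the mutant had the highest signal for Yp1 and Yp2 and the lowest for Yp3. These orders are not firm for Yp1 and Yp3. Over the processing settings, the Yp1 log2 ratio of the neuronal rescue over the mutant ran from -0.94 to 0.37. That of Yp3 for the mutant over the WT control ran from -0.75 to 0.25.

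**Figure D1:**
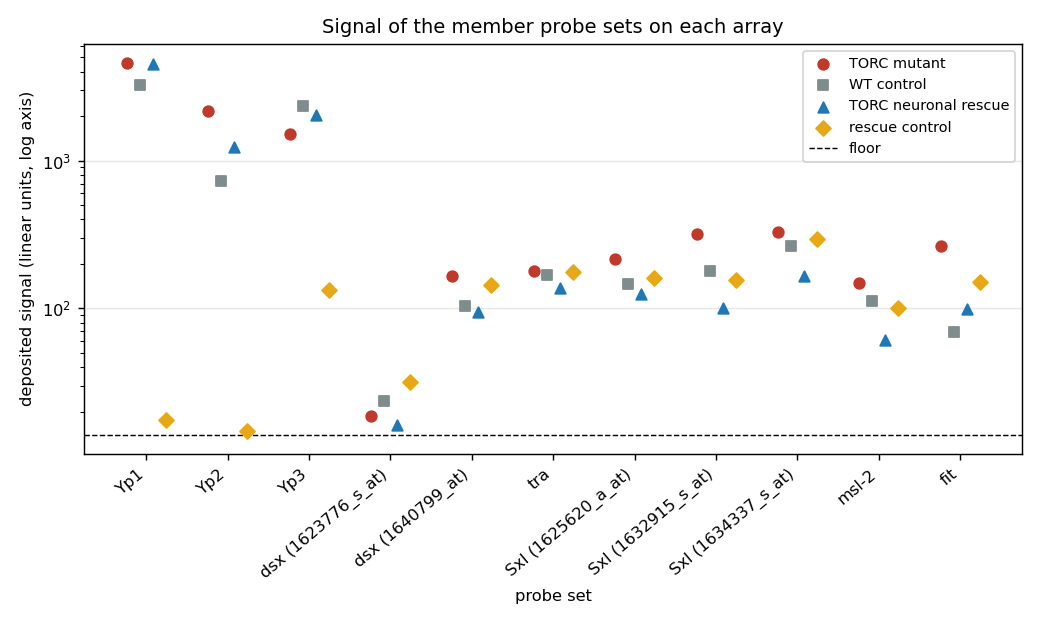
Deposited signal (log axis) of the 11 member probe sets on the TORC mutant, WT control, TORC neuronal rescue and rescue control arrays, 1 point per array, with the floor of 13.85 dashed. Yp1, Yp2 and Yp3 lie at 17.6, 14.8 and 133 on the rescue control array and at 727 or above on the others, while the other members differ by less than 4-fold over the arrays. Heights of different probe sets are not comparable.

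Against the rescue control, the neuronal rescue was 257-fold higher for Yp1, 83.5-fold for Yp2 and 15.3-fold for Yp3. The log2 ratios were 8.01, 6.38 and 3.93. These were the 3 of 11 member probe sets called higher in that comparison and none was lower, where 9.12% of all probe sets were called higher and 1.31% lower. By ratio, Yp1 ranked 4th, Yp2 38th and Yp3 249th of the 18769 probe sets.

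The mutant and the rescue control, both with Crtc below the floor, differed as widely in yolk genes. Yp1 was 262-fold higher in the mutant than in the rescue control, Yp2 147-fold and Yp3 11.3-fold. These ranked 1st, 2nd and 3rd of all 18769 probe sets in that comparison, in which 4 of 11 member probe sets were called higher and 1.09% of all probe sets were, with none of the members lower against 1.48% of all. The fourth was a probe set of Sxl. This comparison shares the rescue control array with the previous one, and it runs across the split in the added Bacillus transcripts.

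The rescue control set against the WT control gave the same array's low yolk signals once more. Yp1 was 184-fold lower in the rescue control, Yp2 49.1-fold and Yp3 17.6-fold, which made 3 of 11 members lower and 1 higher (fit), where 8.54% of all probe sets were lower and 1.83% higher. Set against the mutant and the WT control, the neuronal rescue had small yolk ratios. It was 1.02-fold lower than the mutant for Yp1, 1.76-fold lower for Yp2 and 1.35-fold higher for Yp3. Against the WT control it was 1.40-fold higher for Yp1, 1.70-fold higher for Yp2 and 1.15-fold lower for Yp3. None of these 6 values reached 2-fold. For Yp2 this depended on the scaling. Its log2 ratio over the WT control was 1.19 with arrays centred on photoreceptor, neuron and glia genes. Over the mutant it was -1.73 with median centring. Against the WT control no member probe set of the neuronal rescue was called, where 3.86% of all probe sets were higher and 2.89% lower.

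Between the mutant and the WT control the yolk genes had unequal ratios. Yp2 was 2.99-fold higher in the mutant, a log2 ratio of 1.58 that ranked 85th of all probe sets. Yp1 was 1.43-fold higher and Yp3 1.55-fold lower, both short of 2-fold. The sign for Yp3 depended on the scaling, with a log2 ratio of -0.63 here and 0.25 under median centring. The median log2 ratio over the 11 member probe sets was 0.51 here and -0.60 for the neuronal rescue over the rescue control. The median over all probe sets was 0 in both, since many lay at the floor.

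**Figure D2:**
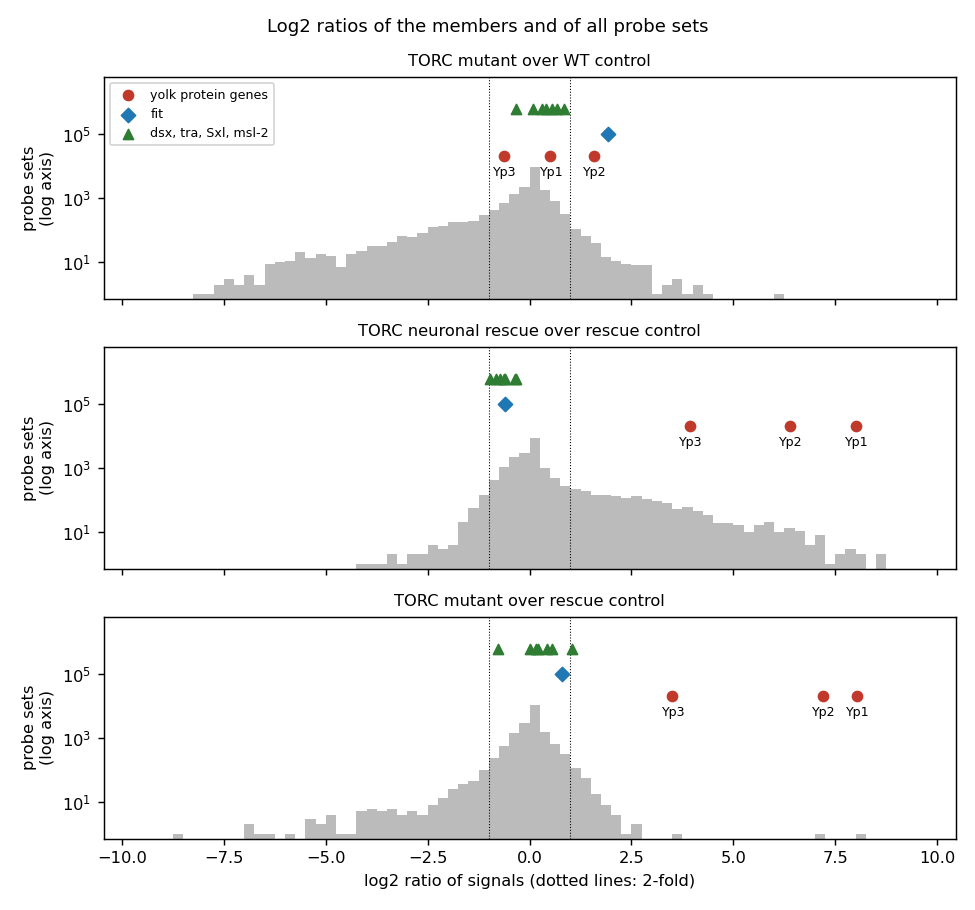
Histograms of the log2 ratio of signals over all 18769 probe sets (grey, log count axis) for the mutant over the WT control, the neuronal rescue over the rescue control and the mutant over the rescue control, with the member probe sets marked above them. The height of a mark carries no value. In the bottom panel Yp1, Yp2 and Yp3 lie at 8.04, 7.20 and 3.50, beyond every other probe set on the higher side.

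Few other probe sets shared the rescue control pattern. Only 4 of the 18769 probe sets, 0.0213%, were at least 4-fold lower on the rescue control array than on each of the other 3 arrays, and they were those of Yp1, Yp2, Yp3 and Obp99a. For comparison, 34 probe sets were that much lower on the mutant array alone, 21 on that of the WT control and 2 on the neuronal rescue array alone, with no member among them. Obp99a encodes a protein of the odorant-binding family and was on the list of sex-biased head genes. Its signal was 76.6 in the mutant and 129 in the WT control, with 254 in the neuronal rescue and 4.2 in the rescue control, where it lay below the floor.

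The genes closest in pattern to each yolk gene were found by the largest gap, over the 4 arrays, between log2 signals after subtraction of each gene's mean. Among 7548 other genes with a highest signal of at least 4 times the floor, Yp2 was nearest to Yp1 with a largest gap of 1.09, followed by Yp3 at 2.997, Obp99a at 3.42 and CG18336 at 3.81. Yp2 had Yp1, then Yp3 at 1.91, Obp99a at 2.40 and lectin-46Cb at 3.12. Nearest to Yp3 was Obp99a at 0.69, followed by lectin-46Cb at 1.25, CG3823 at 1.40 and CG5653 at 1.43. The measure rests on 4 arrays, and its later places are weak likenesses: CG18336 had signals of 30.2 in the mutant and 130 in the WT control, while the neuronal rescue had 231 and the rescue control 14.1.

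The nearest measured genes beside the yolk genes on the chromosome did not share the pattern. In the gene order of the Release 6 assembly, Cht6, a chitinase family gene that flanks Yp2, had 88.4 in the mutant and 67 in the WT control, with 27.9 in the neuronal rescue and 82.1 in the rescue control. CG15312, the nearest measured gene on the side of Yp1, had 165 in the mutant and 150 in the WT control, while the neuronal rescue had 92.3 and the rescue control 152. Both were thus lowest on the neuronal rescue array. The photoreceptor gene rdgB, next to Yp3, had 1626 in the mutant and 1133 in the WT control, with 562 in the neuronal rescue and 894 in the rescue control. On the other side of Yp3, Rtc1 stayed within 1.20-fold over the 4 arrays.

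Tissue markers were set beside the yolk genes. Of 12 measured fat body genes, 12 were above the floor in the rescue control, 11 in the mutant and 10 each in the neuronal rescue and the WT control. The summed fat body signal was 34698 in the mutant and 19023 in the WT control, while the neuronal rescue had 25735 and the rescue control 31601. On the array with dim yolk genes the fat body sum thus lay between those of the mutant and neuronal rescue arrays, where the yolk genes were bright. For example, apolpp, the lipoprotein precursor of fat body, had 6643 in the mutant and 5806 in the WT control, with 6432 in the neuronal rescue and 5677 in the rescue control. RNA from whole heads holds many cell types, and fewer cells of a type and less RNA per cell cannot be told apart.

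Markers of the female reproductive tract were dim throughout. Over 14 eggshell and ovary genes the median signal was 3.0 in the mutant and 3.4 in the WT control, while the neuronal rescue had 6.6 and the rescue control 5.0. The number above the floor was 2, 4, 2 and 1 on the mutant, WT control, neuronal rescue and rescue control arrays, and the growth factor gene grk was the 1 gene above it on every array, at 60.1 to 79.5. The spermathecal genes Send1 and Send2 were at 5.9 or lower on every array. The yolk receptor gene yl, which acts in the ovary, had 0.7 in the mutant and 3.4 in the WT control, with 0.7 in the neuronal rescue and 2.0 in the rescue control.

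Markers of the male reproductive tract followed another split of the arrays. The 12 measured testis genes were all above the floor in the WT control and neuronal rescue, with ranges of 30.9 to 1102 and 62.6 to 2070, while none was above it in the mutant and 4 were in the rescue control, where the highest signal was 21.2. The summed signal of 14 accessory gland and ejaculatory duct genes was 84.5 in the mutant and 13807 in the WT control, while the neuronal rescue had 14857 and the rescue control 103. Signals of the yolk genes were therefore bright on 2 arrays with male tract transcripts and on 1 array without them, and dim on the other array without them. Gut genes had summed signals of 121 in the mutant and 7000 in the WT control, with 5072 in the neuronal rescue and 2051 in the rescue control. Flight muscle genes had sums of 5860 in the mutant and 13423 in the WT control, while the neuronal rescue had 9332 and the rescue control 20959, where they were highest. The part of tissue makeup in the yolk gene differences was not tested.

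**Figure D3:**
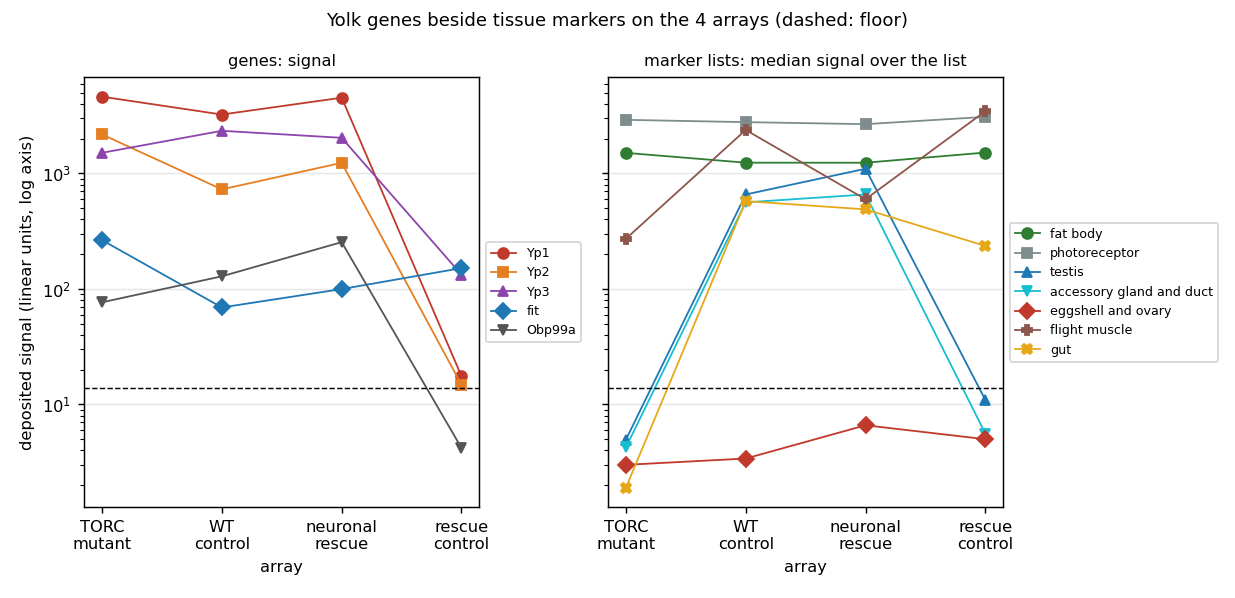
Signals of Yp1, Yp2, Yp3, fit and Obp99a (left) and median signals of marker lists (right) on the 4 arrays, on a log axis with the floor dashed. The yolk genes and Obp99a drop on the rescue control array, whereas the fat body median stays between 1237 and 1516 and the eggshell and ovary median stays below the floor on all arrays. Lines join the arrays only to guide the eye, and heights of different genes are not comparable.

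The female-biased gene fit (Entrez gene 42578) took a different order from the yolk genes. It had a signal of 264.5 in the mutant and 69.1 in the WT control, with 99.7 in the neuronal rescue and 151 in the rescue control. Both arrays with Crtc below the floor were above both arrays with Crtc above it. The mutant was 3.83-fold higher than the WT control, a log2 ratio of 1.94 that ranked 51st of all probe sets. With Yp2 it made 2 of 11 member probe sets called higher in the mutant, where 1.48% of all probe sets were, and none was called lower, against 8.44% of all.

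In the rescue pair fit was 1.52-fold lower in the neuronal rescue than in the rescue control, which is short of 2-fold. It was 2.65-fold lower in the neuronal rescue than in the mutant, and 2.19-fold higher in the rescue control than in the WT control. The lipid droplet gene Lsd-1 and the iron carrier gene Tsf1 had the same order over the arrays, and the storage protein gene Lsp2 had it but for near equal signals in the mutant and the rescue control. Lsp2 had 8765 in the mutant and 1139 in the WT control, while the neuronal rescue had 5512 and the rescue control 8793. Lsd-1 had 1658 in the mutant and 406 in the WT control, with 616.5 in the neuronal rescue and 1370 in the rescue control. Together with Tsf1 they were the 3 of 12 fat body genes at least 2-fold higher in the mutant against its WT control, where 1.74% of all genes were. Not all fat body genes had the order of fit. FASN1 had it, while bmm and NLaz were highest in the rescue control and CG9394 in the WT control. Whether fit moved with the fat body genes as a group was not tested.

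The switch gene Sxl had 3 probe sets, all named as shared among transcripts. The first (1632915_s_at) had 319.5 in the mutant and 179 in the WT control, while the neuronal rescue had 101 and the rescue control 155. The second (1625620_a_at) had 215 in the mutant and 147 in the WT control, with 126 in the neuronal rescue and 160 in the rescue control. The third (1634337_s_at) had 328.5 in the mutant and 266 in the WT control, while the neuronal rescue had 166.5 and the rescue control 295. All 3 were highest in the mutant and lowest in the neuronal rescue. The ratio of the mutant over the WT control was 1.78-fold, 1.46-fold and 1.24-fold in the same order, none of which reached 2-fold.

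Only the first Sxl probe set was called in any of the 6 pairings. It was 2.06-fold higher in the mutant than in the rescue control and 3.17-fold lower in the neuronal rescue than in the mutant. Between the neuronal rescue and the mutant, 3 of 11 member probe sets were called lower, this one with msl-2 and fit, and none higher, where 3.13% of all probe sets were lower and 9.95% higher. The third Sxl probe set was 1.97-fold lower there and the second 1.71-fold, so the probe sets had one direction and different sizes. Their positions within the gene were not given in the sources used here, and which transcript forms each one reads is not stated.

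The gene tra (Entrez gene 39849), whose product acts in females after Sxl-directed splicing, was the most even member. It had 180 in the mutant and 169 in the WT control, with 138 in the neuronal rescue and 177 in the rescue control. Its highest and lowest arrays differed 1.30-fold, and no pairing was called.

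The final regulator of the cascade, dsx, had a bright and a dim probe set. The bright one (1640799_at) had 166 in the mutant and 103 in the WT control, while the neuronal rescue had 94.8 and the rescue control 144. The dim one (1623776_s_at) had 18.6 in the mutant and 23.4 in the WT control, with 16.2 in the neuronal rescue and 31.6 in the rescue control, close to the floor. For the mutant over the WT control the bright probe set gave a log2 ratio of 0.68 and the dim one -0.33, so they disagreed in direction. The sign of the dim one depended on the scaling, with 0.62 under quantile normalization and 0.56 under median centring. For the neuronal rescue over the rescue control both were negative, at -0.60 and -0.96. The dim probe set was 1.95-fold lower and fell just short of 2-fold. While Yp1 differed 262-fold between its highest and lowest arrays, the 2 dsx probe sets differed 1.75-fold and 1.95-fold.

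The dosage compensation gene msl-2 (Entrez gene 33565), which encodes the male-limiting subunit of the complex, had 149 in the mutant and 112 in the WT control. It had 61.3 in the neuronal rescue and 101 in the rescue control. It was 2.43-fold lower in the neuronal rescue than in the mutant and was under 2-fold in the other 5 pairings. In the pairs with their own controls it was 1.33-fold higher in the mutant and 1.65-fold lower in the neuronal rescue.

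The 7 probe sets of dsx, tra, Sxl and msl-2 were all lowest on the neuronal rescue array, and 6 of them were highest on the mutant array. Of 9231 probe sets above the floor on all arrays, 38.7% were lowest on the neuronal rescue array and 33.9% were highest on the mutant array. In the same bright probe sets the median log2 ratio of the neuronal rescue over the rescue control was -0.14. Each array was also centred on its photoreceptor, neuron and glia genes. Then 3 of the 7 were lowest on the neuronal rescue array, 3 on that of the WT control and 1 on that of the mutant. In that scaling the shares of the 9231 probe sets lowest on those arrays were 9.21%, 47.1% and 28.2%. With it 5 of the 7 were highest on the mutant array, against 18.4% of the 9231. With quantile normalization and with median centring all 7 stayed lowest on the neuronal rescue array, against 46.9% and 59.4% of the 9231. In both, 6 stayed highest on the mutant array, against 39.2% and 57.9%. The lowest array of the 7 probe sets therefore depended on the scaling, while the low yolk signals on the rescue control array did not.

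The other genes of these pathways were taken from lists and read by the brightest probe set of each gene. Of 20 listed sex determination genes, 15 were measured and 11 were above the floor on at least 1 array. None was called in the mutant over the WT control or in the neuronal rescue over the rescue control. The median log2 ratios over the 15 measured genes were 0.02 and -0.05. These medians include dsf, sc, upd1 and dpn, which were below the floor on every array. The floor set their ratios to 0, so they could not be called. Among all 11981 genes, 1.74% were called higher and 11.6% lower in the first comparison, and 12.8% higher and 1.5% lower in the second.

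In the mutant over the WT control the largest log2 ratios were 0.55 for Ythdc1, a reader of the RNA mark m6A used in Sxl splicing, and 0.45 for fl(2)d, part of the complex that writes the mark. They were 0.43 for fru, the regulator of male courtship whose transcript Tra also splices, and -0.37 for tra2, the partner of Tra. In the neuronal rescue over the rescue control they were -0.95 for fru, -0.65 for vir and -0.59 for nito, which belong to that writing complex too, and -0.22 for the Sxl activator da. The brightest fru probe set had 307 in the mutant and 229 in the WT control, while the neuronal rescue had 123 and the rescue control 237. A further fru probe set above the floor on all arrays had 103.8 in the mutant and 76.5 in the WT control, with 39 in the neuronal rescue and 65.8 in the rescue control. Both were lowest on the neuronal rescue array, and the other fru probe sets were below the floor on 2 or more arrays.

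All 9 dosage compensation genes on the list were above the floor on all arrays, and none was called in either pair. Their median log2 ratios were 0.01 for the mutant over the WT control and -0.28 for the neuronal rescue over the rescue control. With arrays centred on photoreceptor, neuron and glia genes the medians in the rescue pair were near 0, at 0.01 for this list and 0.06 for the sex determination list. The direction in that pair was thus not firm for either list. The complex subunit msl-3 had 91.4 in the mutant and 132 in the WT control, while the neuronal rescue had 148.6 and the rescue control 148. The acetyltransferase gene mof had 35.4 in the mutant and 47.6 in the WT control, with 48.7 in the neuronal rescue and 48.2 in the rescue control. Both were lowest in the mutant, while the helicase gene mle was highest there, with 258 in the mutant and 202 in the WT control, while the neuronal rescue had 151 and the rescue control 183.

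The scaffold subunit msl-1 was highest on the rescue control array, with 55.7 in the mutant and 58.9 in the WT control, with 57 in the neuronal rescue and 84.1 in the rescue control. The log2 ratios of the neuronal rescue over the rescue control were -0.56 for msl-1 and for the X-enriched kinase gene JIL-1, -0.46 for Unr, a cofactor of Sxl on msl-2, and -0.31 for the zinc finger gene Clamp. For the mutant over the WT control Clamp and JIL-1 both had 0.38.

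The list of yolk uptake and control genes had 10 measured members, of which 1 was called higher in each pair. Of all 11981 genes, 1.74% were called higher in the mutant pair and 12.8% in the rescue pair. EcR, the receptor of the hormone ecdysone that stimulates yolk synthesis, had 132 in the mutant and 53 in the WT control, while the neuronal rescue had 54.5 and the rescue control 83.9. It was 2.49-fold higher in the mutant. jhamt, the enzyme that completes juvenile hormone, had 1.5 in the mutant and 13.3 in the WT control, both below the floor, and 62.7 in the neuronal rescue and 6.1 in the rescue control. That made it at least 4.53-fold higher in the neuronal rescue. The fat body factor gene srp had 292 in the mutant and 194 in the WT control, with 164 in the neuronal rescue and 255 in the rescue control. Any part of srp in the yolk gene differences was not tested. The C/EBP gene slbo had log2 ratios of -0.73 with the mutant at the floor and -0.99 in the rescue pair. The juvenile hormone receptor gene Met had -0.58 for the mutant over the WT control. The list medians were 0.14 for the mutant pair and -0.34 for the rescue pair. They include ratios of 0 set by the floor, for yl in both pairs and for jhamt in the mutant pair.

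Of the 4 measured sex-biased head genes, Obp99a was the 1 called, at least 18.3-fold higher in the neuronal rescue than in the rescue control. In that pair 12.8% of all genes were called higher. Cyp4d21, a P450 gene of the male-biased head fat body set, had 857 in the mutant and 546 in the WT control, while the neuronal rescue had 509 and the rescue control 597. The gene sxe2 had 1293 in the mutant and 1094 in the WT control, with 1084 in the neuronal rescue and 922 in the rescue control. Obp99b had 533 in the mutant and 352 in the WT control, while the neuronal rescue had 1204 and the rescue control 902. In neither of these pairs did Cyp4d21, sxe2 or Obp99b reach 2-fold. The list medians were 0.42 for the mutant pair and 0.32 for the rescue pair. With arrays centred on their median signal the median in the rescue pair was -0.53. The list was not split by the sex that each gene favours, so its medians do not read sex makeup.

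**Figure D4:**
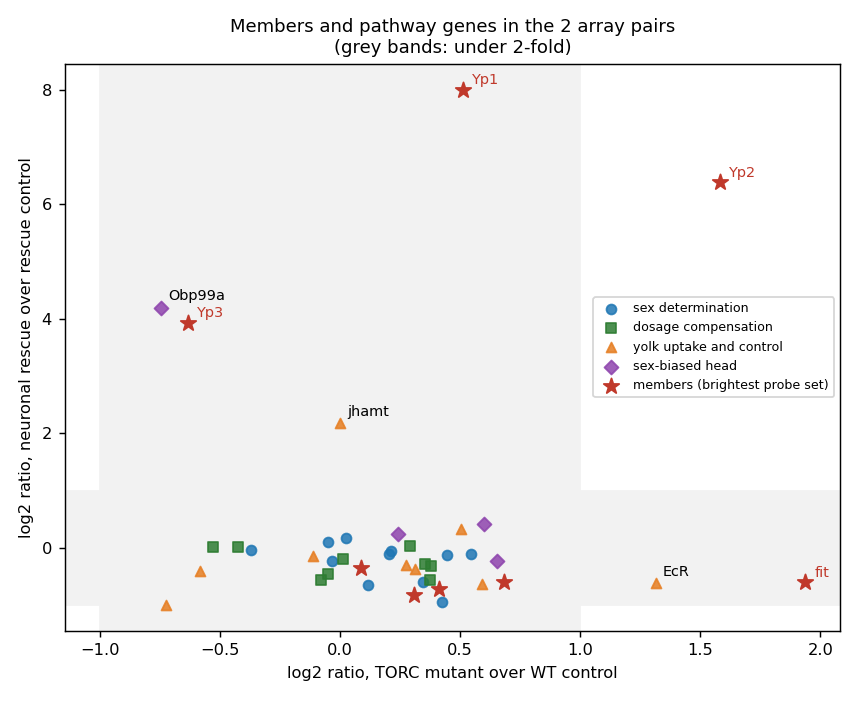
Log2 ratios of the mutant over the WT control (horizontal) and the neuronal rescue over the rescue control (vertical), 2 pairs that share no array, for genes of the pathway lists above the floor on at least 1 array and for the 8 members by their brightest probe set. Grey bands mark ratios under 2-fold. Yp1, Yp2, Yp3, Obp99a and jhamt stand above the band, and the values of Obp99a and jhamt are lower bounds because the rescue control was below the floor.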

How the data were processed

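RNA labelled as from male fly heads was hybridised to 4 arrays, 1 per group. The deposited values were intensity signals of 18952 probe sets, of which 183 were controls. They were summarised with MAS5, per the submitters' processing notes, of a version that no source used here names. Precision is limited by the number of arrays, and detection calls were not used here.

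Each array was brought to the same 2% trimmed mean, a step that barely changed the deposited values, then floored at the 40th percentile and log2 transformed. All 6 pairings of arrays were computed. Of the probe sets that are not controls, 13646 had 1 gene symbol, 402 several and 4721 none in the platform annotation, and those with several or none stayed unnamed. By Entrez identifier 13543 matched RefSeq (Release 6). Each of 11981 genes was read by its brightest probe set in the pathway and marker lists, and members were read by every probe set.

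All members were named. List genes were named as the 4 largest log2 ratios of each pathway list in each pair, and genes of like pattern as the 4 nearest to members bright and varied at 4-fold. Members and lists were chosen with earlier results of these data known. The probe sets called lower on 1 array alone, the chromosomal neighbours, the array order and list medians by scaling, and further genes named from lists were added after the values had been seen. Calling was tested on simulated data. Alternatives changed the scaling, floor, threshold and probe sets. Python 3.11.15, numpy 2.4.6, pandas 2.3.3, scipy 1.17.1 and matplotlib 3.10.9 were used.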

Additional observations from a re-analysis of the deposited data

How the results depend on the processing

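The count of member probe sets called 2-fold or more was 2 for the mutant over the WT control. It was 8 with arrays centred on the median of all probe sets, 5 at a 1.5-fold threshold and 1 at 3-fold. The shares of all probe sets called were 29.9%, 18.6% and 5.98% in those settings, against 9.92% in the main one. For the neuronal rescue over the rescue control the count was 3, and it was 5 with quantile normalization, 11 with median centring and 9 at 1.5-fold. Of all probe sets, 13.9%, 32.7% and 18.9% were called there, against 10.4% in the main setting. In those 3 settings Yp1, Yp2 and Yp3 were the 3 higher ones and the added members were lower. Median centring moved the median log2 ratio of the bright probe sets from 0.07 to 0.96 in the mutant pair and from -0.14 to -0.99 in the rescue pair, and these added calls should be read against that shift. Centring on photoreceptor, neuron and glia genes moved that median to 0.10 and 0.14. The sex determination and dosage compensation lists had no calls in either pair. Median centring called 7 of 15 and 4 of 9 of their genes higher in the mutant pair. It called 4 and 6 lower in the rescue pair. The shares of all probe sets called in that setting were the 29.9% and 32.7% given above. Quantile normalization called 2 sex determination genes lower in the rescue pair. Centring on photoreceptor, neuron and glia genes and no rescaling left both counts as they were. The calls of these lists were not counted under other floors or thresholds. Over all pairings, settings and members, no called log2 ratio changed sign. Of 510 ratios, 64 moved by more than the robust SD of a single probe set in their pairing, 44 of them with median centring. With the floor at the 60th percentile Yp1 and Yp2 lay at the floor in the rescue control, which lowered the log2 ratios of the neuronal rescue over it to bounds of 6.25 and 4.38, and 8 of 11 member probe sets stayed above the floor on all arrays. No paired analysis was possible because each group had 1 array and the labels give no replicate numbers. Signals within 2-fold of the floor, as for Yp1 and Yp2 in the rescue control, carry little information on their true level.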

Other observations

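The 2 nearest measured genes on each side of fit in the Release 6 gene order had patterns unlike its own, and 2 of these 4 were above the floor only in the WT control and the neuronal rescue. P5CDh2 had a signal of 5.2 in the mutant and 113 in the WT control, with 158 in the neuronal rescue and 1.1 in the rescue control. CG17819, on the other side, had 1.6 in the mutant and 44.5 in the WT control, while the neuronal rescue had 72.8 and the rescue control 3.5. Both were below the floor in the mutant and the rescue control, where fit had its highest signals. The other 2 differed from them: dnd had 55 in the mutant and 63.2 in the WT control, with 29 in the neuronal rescue and 52.7 in the rescue control. CG31465 was below the floor on all arrays but the rescue control, where its signal of 13.9 was just above it.

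A single probe set was at least 4-fold higher on the rescue control array than on each other array, against 40 on the WT control array, 28 on the neuronal rescue array and 0 on the mutant array, with no member among them. The rescue control array was thus set apart, at that size, by 4 lower probe sets and 1 higher one.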
